A study of Mus musculus with 3 samples.

Results

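The chemokines and chemokine receptors described here are the mouse genes whose symbols begin with Ccl, Ccr, Cxcl or Cxcr and go on with a number and at most 1 further letter, plus Xcl1, Xcr1, Cx3cl1 and Cx3cr1. The rule found 57 of the 21881 gene symbols in the deposited tables, 38 ligands and 19 receptors, on 65 of 22310 rows. They were measured by total RNA sequencing in 3 snap-frozen mammary tumours grown from NDL(UCD), a transplantable tumour line of an ErbB2 mouse model. NDL mice carry, as background, a transgene of activated Erbb2 (Neu) with a small in-frame deletion, driven by a mammary tumour virus promoter. The recipients were female FVB/NJ mice, of the strain labelled FVB/N, and were injected when 6 to 8 weeks old with 0.1 to 2.0 M (1e6) cultured cells on both sides. The mammary fat pads were uncleared, so the host's own mammary epithelium and fat tissue were still present. Harvest followed once a tumour was 5 to 10 mm wide. All 3 tumours carried the same line in different mice and form a single group. Normal gland, cells before transplantation and other tumours were not analysed here. Tumours are numbered 1 to 3 in accession order, and the numbers carry no order or pairing. The spread between them is therefore one between animals that share 1 line, with 1 library each, so animal and library differences cannot be told apart. Every limma p rests on that spread, moderated over all genes tested. The sample titles also carry marks that differ between the tumours and that no source here explains.

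Chemokines are small secreted proteins, or in a few cases membrane-bound ones, that guide the movement of cells carrying the matching receptors. They are grouped by the spacing of their first cysteines into the CC, CXC, CX3C and C families. Their receptors are G protein-coupled receptors that signal mainly through inhibitory G proteins, and many receptors bind several ligands while many ligands bind several receptors. In mammary tumours they are best known for drawing in monocytes, neutrophils and lymphocytes and for the CXCL12 and CXCR4 pair, which acts on tumour cells as well as on leukocytes.

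Each level is in FPKM, which counts fragments per kilobase of transcript and per unit of library size, so that levels of different genes can be set side by side. Values for a gene are given in the order tumour 1, tumour 2, tumour 3, and a mean is followed by its SD over n = 3 tumours. The deposited intervals corresponded to about 11.7, 12.4 and 13.4 M fragments. A count of 0 allows 3 fragments, which for the median member was 0.0702, 0.0742 and 0.0677 FPKM, for counting error only. All 5 luminal epithelial markers lay above 1 FPKM and summed to 753, 1115 and 1048 FPKM, with Krt18 (mean 526) and Epcam (mean 202) highest, which matches the mammary label. These were bulk samples, in which fewer cells of a type and less RNA per cell cannot be told apart.

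A few ligands and 1 receptor held much of the signal. Ccl8, Cxcl14, Ccl6, Cxcl12, Cxcl16 and Ccl9 together made up 64.2%, 79.6% and 75.7% of all ligand FPKM. Cxcr4 alone made up 35.2%, 49.7% and 53.9% of all receptor FPKM. Receptors of lymphocytes, dendritic cells, neutrophils and eosinophils mostly lay under 1 FPKM. Against a fixed level of 1 FPKM, a convention and not a biological boundary, 19 members lay above and 23 below by limma at a Benjamini-Hochberg adjusted p under 0.05 over 18028 genes. Of all genes tested, 54.2% lay above 1 FPKM and 32.5% below. Another 12 members could not be separated from 1 FPKM, 2 had a status other than OK and 1 was listed at 0 in every tumour. The 54 tested members had a median of 0.795 FPKM, beside 2.44 for all genes tested. After each tumour was rescaled to a total of 1000000 FPKM, which raised the median gene by 1.54 on the log2 scale, 25 members lay above and 9 below. The share above among the called members was then 73.5% in place of 45.2%, beside 73.7% and 62.5% for all genes.

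Ligands and receptors were also counted apart. Of 35 ligands tested, 14 lay above 1 FPKM, 12 below and 9 could not be separated, with a median of 1.30 FPKM. Of 19 receptors, 5 lay above, 11 below and 3 could not be separated, with a median of 0.318 FPKM. The difference between the roles was not tested. Without tumour 1, 2 or 3 the ligands above numbered 12, 8 and 10 and those below 7, 6 and 13, while the receptors below numbered 8, 7 and 10 and those above stayed at 5. Summed over members, ligands reached 79.9, 168 and 302 FPKM and receptors 29.5, 37.5 and 54.7 FPKM, both lowest in tumour 1 and highest in tumour 3.

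**Figure D1:**
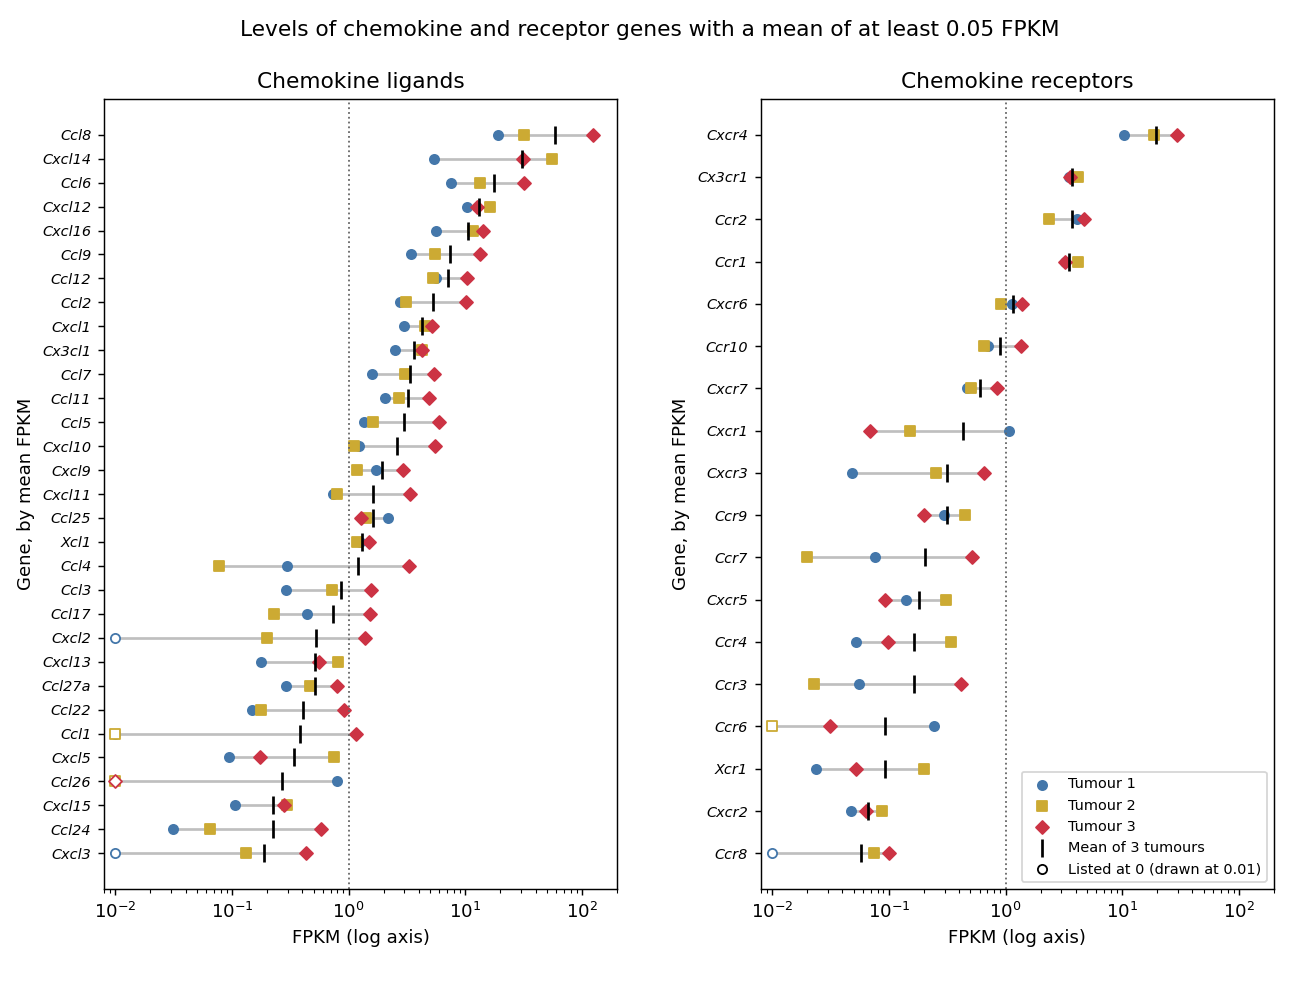
FPKM of members averaging 0.05 FPKM or more on a logarithmic axis, ligands at the left and receptors at the right, with 1 coloured point per tumour, a black bar at the mean, open points for values listed at 0 (drawn at 0.01) and a dotted line at 1 FPKM. Ccl8 (19.0, 31.5 and 125 FPKM) was the highest ligand by its mean and Cxcr4 (10.4, 18.6 and 29.5 FPKM) the highest receptor.

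The tumours were not alike in these genes. Cochran's Q on the deposited standard errors, which sets the libraries against counting error only, was run on the 25 members whose mean reached 1 FPKM. It called 15 of them different between tumours at an adjusted p under 0.05 and a ratio of highest to lowest of at least 2. Among all 11193 genes tested, 32.1% were called. Tumour 3 was the highest for 14 of the 15, and 13.1% of all genes tested were both called and highest there. Tumour 2 was the highest for 1, Cxcl14, beside 3.61% of all genes, and tumour 1 for 0, beside 15.5% of all genes. Ccl4 and Cxcl11 reached the mean of 1 FPKM only through tumour 3, so their difference is partly set by that filter. Without tumour 3, 2 of the 15 calls remained, those of Cxcl14 and Cxcl16. Without tumour 1, 9 remained, and those lost included Ccl7, Ccl11, Cxcl14, Cxcl16 and Cxcr4. Without tumour 2, 14 remained and the call of Cxcl9 was lost. With a further error of 20% added to each value, 11 of the 15 calls remained and those lost included Ccl5, Ccl11 and Cxcl9, while 13.6% of all genes were still called.

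The direction was shared widely. Tumour 3 was the highest of the 3 for 19 of the 25 members, beside 47.4% of all genes, and tumour 1 the lowest for 17, beside 59.7%. These members include Ccl4 and Cxcl11, which reached the mean of 1 FPKM only through tumour 3. That filter fixed their direction, and both also enter the ligand medians that follow. The median log2 difference between tumour 3 and tumour 1 was 1.77 over the 19 ligands tested, 0.23 over the 6 receptors tested and 0.39 over all genes. Libraries differed in how FPKM followed GC content and transcript length, and these trends moved with the difference between tumours. With them removed, the median over all genes was 0.01, over the ligands 1.92 and over the receptors 1.53. The trends were fitted to nearly these same genes, so the small median over all genes follows from the fit and is not a finding. Tumour 3 was then the highest for 20 of the 25 members, beside 37.5% of all genes, and 20 members were called, beside 17.0% of all genes.

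The summed markers of macrophages, neutrophils, T cells, dendritic cells and B cells were lowest in tumour 1 and highest in tumour 3, although single markers had other orders: Mrc1, Cd209a and Clec9a were lowest in tumour 2, and Cd8a and Mpo were highest there. All 9 macrophage and monocyte markers differed between tumours and were highest in tumour 3, with sums of 227, 399 and 852 FPKM, none at 0 and Lyz2 (146, 230 and 602 FPKM) and C1qa (49.1, 115 and 170 FPKM) leading. Of those 9, 8 lay above 1 FPKM, beside 54.2% of all genes tested. Over all genes, 32.1% were called different between tumours and 47.4% were highest in tumour 3. Ly6c2 (0.456, 0.966 and 2.88 FPKM) reached the mean of 1 FPKM only through tumour 3, so its difference is partly set by that filter. The 6 neutrophil markers found summed to 5.33, 14.1 and 31.6 FPKM, of which S100a8 gave 3.59, 9.15 and 21.6 and S100a9 1.07, 3.59 and 6.45, with Elane listed at 0 and Mpo at 0 in at least 1 tumour. The 7 T-cell markers summed to 2.13 and 4.95 FPKM in tumours 1 and 2 and to 5.17 times the tumour 1 value in tumour 3, with Cd3g (mean 2.62) and Cd2 (mean 1.12) highest and none at 0. The 5 dendritic cell markers summed to 6.02, 9.52 and 15.3 FPKM, led by Itgax and Zbtb46. The 4 adipocyte markers gave 59.4, 43.6 and 190 FPKM, led by Fabp4 and Adipoq. Other lists were flatter or scarce. The 7 fibroblast markers summed to 177, 298 and 265 FPKM (Col3a1 and Col1a2 highest), the 5 blood endothelial ones to 13.2, 19.9 and 16.3 (Pecam1 and Cdh5) and the 4 lymphatic ones to 3.66, 3.71 and 4.28 (Pdpn and Lyve1). NK-cell markers summed to 1.38, 0.872 and 1.45 FPKM, led by Ncr1 and Klrb1c. B-cell markers gave 0.133, 0.429 and 0.714 FPKM, led by Cd79b and Cd79a and with Pax5 at 0. The 4 eosinophil markers, led by Ear1 and Prg2, were all at 0 in tumours 1 and 2 and summed to 0.916 FPKM in tumour 3. The part of these cell types in the chemokine values was not tested.

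**Figure D2:**
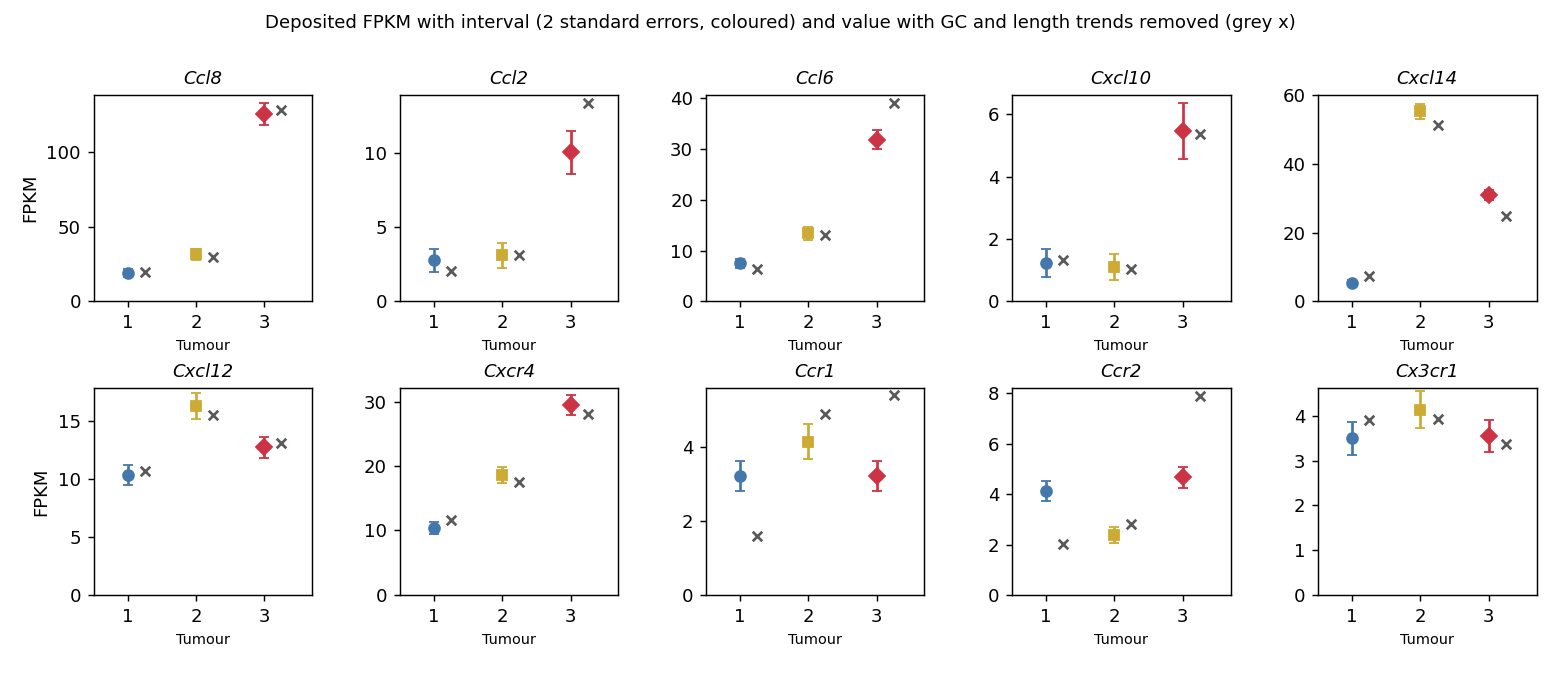
FPKM of 10 members in each tumour on linear axes that start at 0, with bars for 2 standard errors from the deposited interval and a grey cross for the value with GC and length trends removed. Ccl8, Ccl2, Ccl6, Cxcl10 and Cxcr4 are highest in tumour 3 in both, Cxcl14 and Cxcl12 in tumour 2, and Ccr2 in tumour 3 is at 4.66 FPKM as deposited and 7.91 with the trends removed.

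Of the 4 CC ligands grouped here as attracting monocytes, Ccl8 stood highest, although it is paired below with Ccr8 and not with Ccr2. Ccl8, known in the mouse as a ligand of CCR8, was listed at 19.0, 31.5 and 125 FPKM, a mean of 58.6 ± 58.1, resting on about 172, 275 and 1217 fragments. Tumour 3 lay far above the other two, at 6.60 times tumour 1, and Ccl8 alone made up 23.7%, 18.8% and 41.5% of ligand FPKM. Ccl8 lies at chr11:81928687-81930301 (mm9). Its level was above 1 FPKM by 5.26 ± 0.50 (SE) on the log2 scale (limma adjusted p = 4.0e-05). The spread was wide enough that its range overlapped that of the next ligand, Cxcl14.

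The other 3 ligands of this group, which signal through CCR2, were lower. Ccl12, the rodent relative of Ccl2, was listed at 5.61, 5.30 and 10.3 FPKM. Ccl2, the best known monocyte attractant, stood at 2.76, 3.10 and 10.0 FPKM. Ccl7 gave 1.60, 3.02 and 5.42 FPKM. Tumour 3 was the highest for each, and the difference was called for Ccl2 (3.64 times) and Ccl7 (3.40 times) but not for Ccl12 (1.94 times, under the required ratio). With GC and length trends removed Ccl12 was called too, at 3.82, 5.53 and 14.5 FPKM. All 4 lay above 1 FPKM by limma, but the call was lost for Ccl2 without tumour 2 (adjusted p = 0.066) and for Ccl7 without tumour 2 (0.13) or tumour 3 (0.083). Macrophage markers, as given above, were also highest in tumour 3.

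Promoter windows of Ccl8 and Ccl12, neighbours on chromosome 11, are shown because their upstream sequences were among the most alike of all members. RefSeq (GRCm38.p6) gave 250-base windows before the start for 41 of the 57 members, 45 windows in all. Over the 820 pairs of members the median identity was 48.6%, and Ccl8 with Ccl12 ranked the second at 57.5%. The Ccl8 window is chr11:82114935-82115184 and the Ccl12 window chr11:82101595-82101844, both on the plus strand. Capitals mark the TATA box letters TATAAA, found at -32 and -31 from the start. They were found on either strand in 12 of the 45 member windows and in 12.4% of 32851 windows of all genes.
Ccl8: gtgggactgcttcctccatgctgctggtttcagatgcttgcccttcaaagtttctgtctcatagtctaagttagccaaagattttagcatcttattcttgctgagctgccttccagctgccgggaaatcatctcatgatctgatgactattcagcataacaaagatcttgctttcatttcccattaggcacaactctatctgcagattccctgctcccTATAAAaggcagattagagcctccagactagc
Ccl12: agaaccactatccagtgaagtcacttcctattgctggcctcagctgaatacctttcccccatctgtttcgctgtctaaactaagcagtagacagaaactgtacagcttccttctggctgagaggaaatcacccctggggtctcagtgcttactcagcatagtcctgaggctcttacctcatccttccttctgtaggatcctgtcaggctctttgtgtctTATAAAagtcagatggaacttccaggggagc
Both genes were highest in tumour 3, by 6.60 and 1.94 times the lowest tumour. A match is a description of letters and not a binding site.

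Ccl6 and Ccl9 are CCR1 ligands of rodents, made largely by myeloid cells. Ccl6 gave 7.52, 13.4 and 31.9 FPKM and was the third highest ligand by mean (17.6 ± 12.7). Ccl9 gave 3.40, 5.44 and 13.5 FPKM (7.44 ± 5.33). Both were lowest in tumour 1 and highest in tumour 3, with ratios of 4.24 and 3.96 that Cochran's Q called. The locus of Ccl6 lies within that of the noncoding E230016K23Rik, which was listed at 0.0704, 0.0975 and 0.103 FPKM. The level call of Ccl9 was lost without tumour 2 (limma adjusted p = 0.056).

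The inflammatory CC ligands Ccl3, Ccl4 and Ccl5 were lower. Ccl5 (RANTES), a product of T cells and of cells exposed to interferon, was listed at 1.35, 1.61 and 5.99 FPKM. Ccl4 was at 0.297, 0.0772 and 3.26 FPKM, which rest on about 4, 1 and 47 fragments. Ccl3 stood at 0.289, 0.722 and 1.57 FPKM. Tumour 3 held most of all 3 genes, and the Ccl4 signal in the other tumours was at a few fragments. Of the trio Ccl5 was above 1 FPKM (log2 1.17 ± 0.42 SE, limma adjusted p = 0.028). That call was lost with any tumour left out (adjusted p from 0.10 to 0.18) and with median-of-ratios scaling (0.052).

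Of the CC chemokines that attract eosinophils, Ccl11 (eotaxin) was the highest. Ccl11 was listed at 2.03, 2.72 and 4.88 FPKM and lay above 1 FPKM (limma adjusted p = 0.0013, or 0.075 without tumour 2). Its relative Ccl24 lay below 1 FPKM, with a mean of 0.227. Ccl26 (mean 0.266) was also called below by limma, but was listed at 0.798 FPKM in tumour 1, which corresponds to 2 fragments, and at 0 in the others. For this short transcript 3 fragments would be 1.20 FPKM, so Ccl26 cannot be placed against 1 FPKM at this depth. Ccl17 and Ccl22, dendritic cell products that attract CCR4-bearing T cells, were highest in tumour 3. Ccl17 gave 0.437, 0.227 and 1.53 FPKM and could not be separated from 1 FPKM. Ccl22 gave 0.148, 0.176 and 0.907 FPKM and lay below it. Ccl1, a CCR8 ligand, was at 0 in both tumours 1 and 2 and reached 1.15 FPKM, about 11 fragments, in tumour 3, where 3 fragments would be 0.315 FPKM. The eosinophil markers were near 0, as given above.

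Homeostatic CC chemokines, which organise lymphoid tissue and barrier surfaces, were scarce. Ccl25, the thymic and intestinal ligand of CCR9, was the exception at 2.18, 1.41 and 1.28 FPKM. It was the only member averaging 1 FPKM or more that was highest in tumour 1, and its difference was not called. Ccl27a, a skin chemokine, gave 0.290, 0.462 and 0.795 FPKM and shares 4 bp of its locus with Il11ra1. Ccl19 and Ccl20 had means of 0.0191 and 0.0375 FPKM. The 3 Ccl21 genes, near-identical copies among which reads can be split, were at or near 0, and the status of Ccl21a and Ccl21b was not OK in every tumour. Ccl28, placed by the files on an unassigned piece of chromosome 13, was listed at 0. The low values in the lymphoid group stood beside summed B-cell markers of at most 0.714 FPKM.

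Neutrophil-attracting CXC chemokines were represented mainly by Cxcl1. Cxcl1, the mouse KC protein, was listed at 2.96, 4.54 and 5.23 FPKM (4.24 ± 1.16), above 1 FPKM (limma adjusted p = 0.00011). Cxcl2 (MIP-2) gave 0, 0.201 and 1.37 FPKM. Cxcl3 gave 0, 0.131 and 0.431 FPKM. All 3 were lowest in tumour 1 and highest in tumour 3. The difference of Cxcl1 was not called as deposited (1.77 times) and was called with GC and length trends removed, at 2.41, 4.51 and 6.55 FPKM. Cxcl5 followed another order, at 0.0936, 0.754 and 0.175 FPKM, and Cxcl15 (lungkine) had a mean of 0.227 FPKM. Both, with Cxcl3, lay below 1 FPKM. The neutrophil markers S100a8, S100a9, Csf3r and Retnlg were also lowest in tumour 1 and highest in tumour 3. Mpo (0, 0.0452 and 0.0135 FPKM) was highest in tumour 2, and Elane was listed at 0. Of the neutrophil receptors, Cxcr1 was highest in tumour 1 and Cxcr2 in tumour 2. The part of neutrophils was not tested.

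The upstream windows of Cxcl1, Cxcl2 and Cxcl3 are shown because the 3 genes shared an order of tumours. That order was common, held by 42.5% of all genes averaging 1 FPKM or more. Cxcl2 and Cxcl3 were listed at 0 in tumour 1 and rest on about 5 and 3 fragments in tumour 2. Capitals mark the NF-kB core, searched as the letters GGG, 5 bases of any kind and CC on either strand, overlapping matches included, and the TATA box letters TATAAA. The core was found in 24 of the 45 member windows and in 45.8% of all windows. The window of Cxcl1 is chr5:90890995-90891244, that of Cxcl2 chr5:90903649-90903898 and that of Cxcl3 chr5:90785851-90786100, all on the plus strand of GRCm38.p6.
Cxcl1: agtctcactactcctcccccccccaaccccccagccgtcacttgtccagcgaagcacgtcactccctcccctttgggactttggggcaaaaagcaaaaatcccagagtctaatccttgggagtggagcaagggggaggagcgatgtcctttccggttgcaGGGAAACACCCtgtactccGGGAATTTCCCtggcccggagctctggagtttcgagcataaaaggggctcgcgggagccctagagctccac
Cxcl2: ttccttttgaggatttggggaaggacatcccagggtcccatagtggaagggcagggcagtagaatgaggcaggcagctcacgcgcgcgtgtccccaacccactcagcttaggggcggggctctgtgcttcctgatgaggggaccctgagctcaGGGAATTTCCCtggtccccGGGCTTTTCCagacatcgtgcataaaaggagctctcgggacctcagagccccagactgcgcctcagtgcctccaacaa
Cxcl3: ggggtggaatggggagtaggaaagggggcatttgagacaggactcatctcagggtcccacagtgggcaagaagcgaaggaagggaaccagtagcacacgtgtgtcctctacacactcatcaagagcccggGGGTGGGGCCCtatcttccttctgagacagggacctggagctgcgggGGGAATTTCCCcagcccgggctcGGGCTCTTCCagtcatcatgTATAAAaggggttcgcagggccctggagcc
All 3 held the same 10 letters GGGAATTTCC, at -71, -97 and -73. This form, picked after the windows were read, was in 4 of the 45 member windows and in 28 of all windows (0.0852%). Cxcl2 and Cxcl3 had the highest identity of all member pairs, 58.7%.

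The ligands of CXCR3, which interferon-gamma is known to induce, were low in tumours 1 and 2 and higher in tumour 3. Cxcl10 was listed at 1.22, 1.11 and 5.45 FPKM. Cxcl9 was at 1.72, 1.19 and 2.91 FPKM. Cxcl11 was at 0.737, 0.792 and 3.36 FPKM. The ratios of highest to lowest were 4.92, 2.45 and 4.56, and Cochran's Q called all 3, beside 32.1% of all genes. Cxcl11 reached the tested mean of 1 FPKM only through tumour 3, so its call is partly set by that filter. Against 1 FPKM only Cxcl9 was called by limma (adjusted p = 0.035), and not with any tumour left out (0.083 to 0.18) or with GC and length trends removed (0.061). Cxcl10 (adjusted p = 0.086) and Cxcl11 (0.50) could not be separated from it. Cxcl10 and Cxcl11 lie within the locus of Art3 (0.924, 0.909 and 0.955 FPKM), and the sources used here do not give the strand setting. Ifng itself was listed at 0.135, 0.0703 and 0 FPKM, or about 4, 2 and 0 fragments, too few to set the tumours apart. The summed T-cell markers were highest in tumour 3, with Cd8a (0.0861, 0.390 and 0.361 FPKM) highest in tumour 2.

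The windows of Cxcl9 and Cxcl10 are shown because both genes are textbook targets of interferon signalling. Both lie on the minus strand of GRCm38.p6, Cxcl9 at chr5:92328080-92328329 and Cxcl10 at chr5:92348890-92349139. Capitals mark the core of the interferon-stimulated response element (GAAA, 2 bases of any kind, GAAA), the NF-kB core and the TATA box letters TATAAA, on either strand.
Cxcl9: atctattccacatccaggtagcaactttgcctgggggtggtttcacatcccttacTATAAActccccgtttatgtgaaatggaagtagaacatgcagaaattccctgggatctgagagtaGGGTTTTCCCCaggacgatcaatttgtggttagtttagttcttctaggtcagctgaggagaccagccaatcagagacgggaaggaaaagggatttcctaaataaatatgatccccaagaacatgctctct
Cxcl10: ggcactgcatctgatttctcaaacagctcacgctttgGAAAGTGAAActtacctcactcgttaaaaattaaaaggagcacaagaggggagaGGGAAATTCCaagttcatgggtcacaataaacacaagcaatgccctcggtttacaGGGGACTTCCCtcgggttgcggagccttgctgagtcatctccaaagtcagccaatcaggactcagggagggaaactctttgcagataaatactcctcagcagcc
The Cxcl10 window held the response element core at -213 and NF-kB cores at -159, -104 and -103. Cxcl9 held NF-kB cores at -130 and -129 and the TATA letters at -195. The response element core was found in the windows of 3 member genes, Ccl19, Cxcl10 and Cxcl14, and in 2.98% of all windows. The letters TTCNNNGAA of the gamma-activated sequence were in 3 member windows and 7.02% of all, the hypoxia response core ACGTG in 6 and 16.6%, and the AP-1 letters TGANTCA in 5 and 6.75%. No match says only that these letters are not in this window.

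The homeostatic and atypical CXC ligands included some of the highest members. Cxcl12 (SDF-1), a stromal product that retains CXCR4-bearing cells, was listed at 10.4, 16.3 and 12.7 FPKM (13.1 ± 2.99). It varied little between tumours, with a ratio of 1.57 that was under the required 2. Cxcl14, an epithelial and stromal chemokine whose receptor is debated, was listed at 5.42, 55.4 and 30.9 FPKM (30.6 ± 25.0). It was the only called member highest in tumour 2, at 10.2 times tumour 1, and 51.3 against 7.29 FPKM with GC and length trends removed. Its level call was lost without tumour 3 (limma adjusted p = 0.065). The summed fibroblast markers were also highest in tumour 2 and lowest in tumour 1, at 177, 298 and 265 FPKM, but Col3a1 was highest in tumour 3, and Dcn (17.2, 10.0 and 10.8 FPKM) and Lum (10.5, 5.66 and 5.74 FPKM) were highest in tumour 1. Their part was not tested. Cxcl13, the B-cell attractant, was at 0.177, 0.810 and 0.562 FPKM and below 1 FPKM (adjusted p = 0.032). Leaving out any tumour ended that call (adjusted p from 0.094 to 0.19). Cxcl17 had a mean of 0.0190 FPKM.

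The membrane-anchored chemokines were present in every tumour. Cxcl16, which also acts as a scavenger receptor for oxidised lipoprotein, was listed at 5.60, 11.7 and 14.3 FPKM (10.5 ± 4.46) and differed between tumours by a ratio of 2.55. Cx3cl1 (fractalkine), an adhesion molecule of endothelium and epithelium, was listed at 2.47, 4.27 and 4.25 FPKM (3.66 ± 1.03) with a ratio of 1.73 that was not called. With GC and length trends removed Cx3cl1 was nearly flat, at 3.57, 3.88 and 3.25 FPKM. Cxcl16 shares 363 bp of its locus with Zmynd15, which was below it at 0.392, 1.11 and 1.14 FPKM. The proteases that release both from the cell surface were highest in tumour 1 and lowest in tumour 3 as deposited, Adam10 at 13.5, 8.85 and 7.38 FPKM and Adam17 at 14.3, 12.7 and 7.62 FPKM. Neither was called, and with GC and length trends removed they stood at 10.3, 8.91 and 9.69 FPKM and at 11.6, 12.6 and 9.66 FPKM. Xcl1 (lymphotactin), the C family ligand of T and NK cells, was at 1.25, 1.18 and 1.48 FPKM. It could not be separated from 1 FPKM, and the tumours did not differ past the threshold of Cochran's Q (adjusted p = 0.85).

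**Figure D3:**
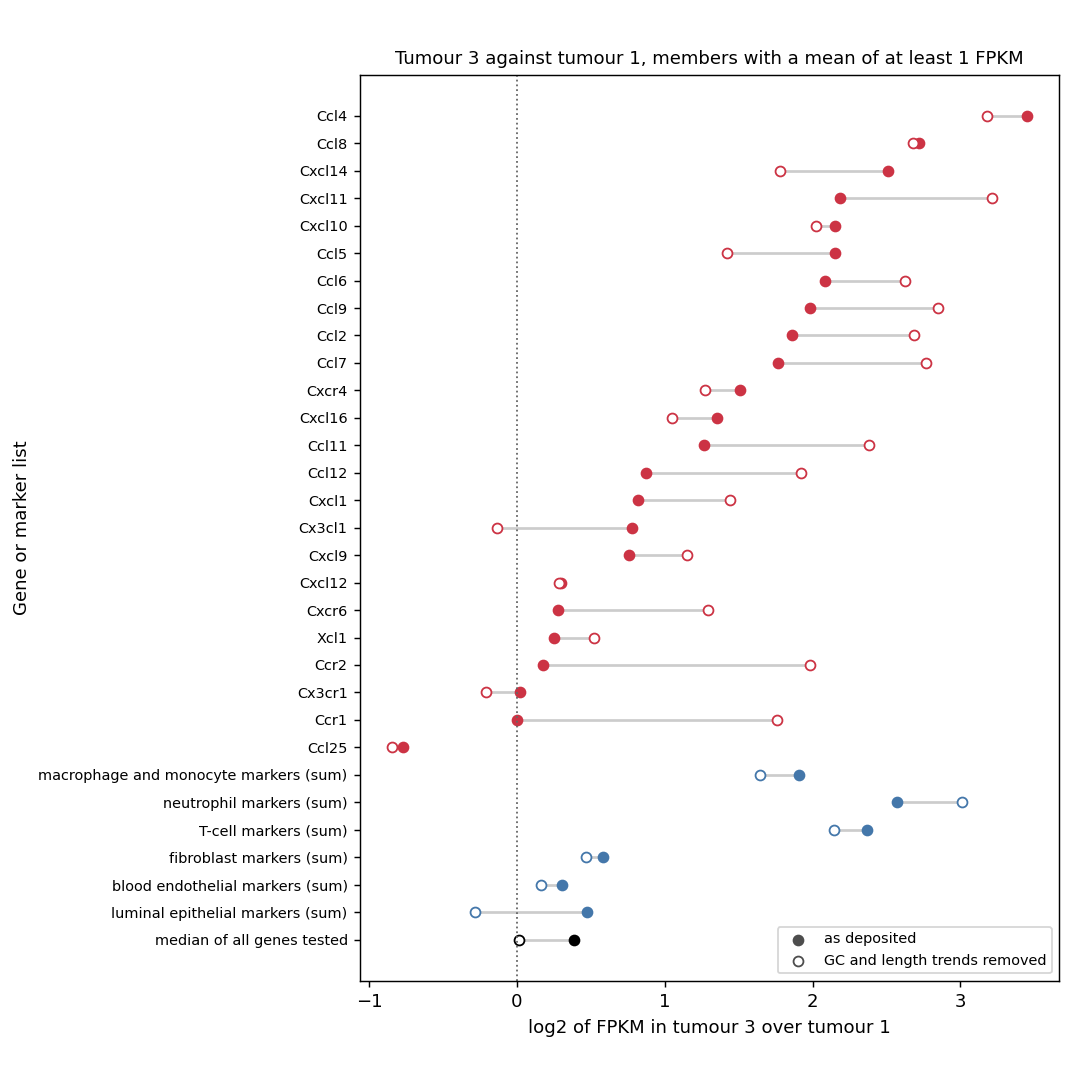
Log2 ratio of FPKM in tumour 3 over tumour 1 for members averaging 1 FPKM or more (red), for summed marker lists (blue) and for the median of all genes tested (black), as deposited (filled) and with GC and length trends removed (open). The medians were 1.77 and 1.92 for the ligands and 0.23 and 1.53 for the receptors, and those of all genes 0.39 and 0.01. The value of 0.01 follows from the trend fit itself.

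Cxcr4 was by far the highest receptor. Cxcr4, carried by leukocytes and by many tumour cells, was listed at 10.4, 18.6 and 29.5 FPKM (19.5 ± 9.59), 4.03 ± 0.31 (SE) above 1 FPKM on the log2 scale (limma adjusted p = 2.6e-06). Its 3 values lay above those of every other receptor. Tumour 3 was 2.84 times tumour 1, a difference that Cochran's Q called. The call remained with GC and length trends removed, at 11.6, 17.6 and 28.1 FPKM. Cxcr4 lies at chr1:130484776-130488876 (mm9). Cxcr7 (Ackr3), the scavenging receptor for the same ligand, was much lower at 0.472, 0.505 and 0.840 FPKM and could not be separated from 1 FPKM.

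Receptors of monocytes and macrophages were lower. Ccr2, which marks inflammatory monocytes, was at 4.12, 2.37 and 4.66 FPKM (3.72 ± 1.20). Cx3cr1, the fractalkine receptor of resident and patrolling myeloid cells, was at 3.51, 4.14 and 3.55 FPKM (3.73 ± 0.357). These values and those of Ccr1 (3.22, 4.15 and 3.22 FPKM, 3.53 ± 0.538) lay above 1 FPKM with every tumour left out in turn. Their ranges overlapped, so their order by mean was not clear beyond the spread, and all 3 stood apart from the lower receptors. As deposited, Ccr2 (1.97 times), Ccr1 (1.29 times) and Cx3cr1 (1.18 times) were under the required ratio between tumours. Removing GC and length trends changed this for Ccr2 and Ccr1. Ccr2 then stood at 2.00, 2.81 and 7.91 FPKM and Ccr1 at 1.59, 4.89 and 5.41 FPKM, each called and highest in tumour 3. Cx3cr1 stayed flat, at 3.91, 3.94 and 3.38 FPKM.

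The remaining receptors were near or below 1 FPKM. Cxcr6, the CXCL16 receptor of T and NKT cells, was listed at 1.15, 0.919 and 1.39 FPKM, but its locus lies within that of Fyco1 (7.63, 6.69 and 5.59 FPKM), so its value is uncertain without a known strand setting. Ccr10, the receptor of skin-homing and plasma cells, was at 0.714, 0.649 and 1.35 FPKM. Neither could be separated from 1 FPKM. Cxcr3, the receptor of activated T cells, was at 0.0484, 0.251 and 0.654 FPKM and below 1 FPKM (limma adjusted p = 0.0068), a call lost without tumour 1 (0.091) or tumour 2 (0.16). Ccr9 had a mean of 0.314 FPKM and was highest in tumour 2. Cxcr1 was highest in tumour 1, at 1.07, 0.153 and 0.0688 FPKM, or about 29, 4 and 2 fragments. Its call below 1 FPKM (adjusted p = 0.021) was lost without tumour 2 (0.30) or tumour 3 (0.31). The other neutrophil receptor, Cxcr2, was at 0.0478, 0.0870 and 0.0635 FPKM. Ccr7, the receptor of migrating dendritic cells, was at 0.0767, 0.0199 and 0.519 FPKM. With Cxcr2, the lowest were Ccr8 (mean 0.0580), Xcr1 (mean 0.0918), Ccr6 (mean 0.0920), Ccr3 (mean 0.164), Ccr4 (mean 0.164) and Cxcr5 (mean 0.180), all below 1 FPKM. For Ccr3 that call was lost without tumour 1 (adjusted p = 0.070) or tumour 2 (0.075).

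Ligands and receptors were then paired within each tumour. For 17 receptors with known ligands the summed ligand FPKM was set against the receptor as a log2 difference of FPKM + 0.1. As deposited, in 12 pairs the ligands were higher in all 3 tumours, in 3 the receptor was higher in all, and in 2 the sign varied. With GC and length trends removed, the Cxcr5 pair varied in sign, at -0.443, 1.37 and 2.41. The Cx3cr1 pair was then negative in every tumour, at -0.129, -0.0212 and -0.0580. With 3 tumours the smallest exact two-sided sign-flip p is 0.25, and the smallest value adjusted over the 17 receptors was 0.283, so none can pass 0.05 and the differences are descriptive. Members outside the pairs included Ccl4, Cxcr1, Cxcl14, Cxcl15 and Cxcl17.

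The widest gap was that between Ccl8 with Ccl1 and their receptor Ccr8. The ligands summed to 19.0, 31.5 and 126 FPKM and the receptor was at 0, 0.0741 and 0.0998 FPKM, a mean log2 difference of 8.13 ± 1.02. The receptor lay at or under the limit of 3 fragments, about 0.105 FPKM, so the size of that gap depends on the 0.1 added. Ccr3 faced 5 ligands at 5.41 ± 0.46, Cxcr2 faced 4 at 4.94 ± 0.53, and Cxcr7 faced Cxcl12 and Cxcl11 at 4.41 ± 0.38. Cxcr3 faced its 3 ligands at 3.94 ± 0.75, with 3.68, 3.09 and 11.7 FPKM of ligand. In these 5 pairs the receptor stayed under 1 FPKM in every tumour. Ccr3, Cxcr2 and Xcr1 also lay near or under the added 0.1 in some tumours, so the sizes and part of the order depend on it. With 0.01 added the differences became 9.87 for Ccr8, 6.54 for Ccr3, 6.07 for Cxcr2, 4.61 for Cxcr7, 4.57 for Cxcr3 and 4.10 for Xcr1.

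Other pairs were closer. Cxcl16 exceeded Cxcr6 by 3.00 ± 0.71, Xcl1 exceeded Xcr1 by 2.97 ± 0.76, and the 5 ligands of Ccr1 exceeded it by 2.92 ± 1.08. Ccl25 exceeded Ccr9 by 2.06 ± 0.54 and the CCR2 ligands exceeded Ccr2 by 1.97 ± 0.63. Ccl17 with Ccl22 exceeded Ccr4 by 2.01 ± 1.75, with differences from 0.19 to 3.68. Cxcl13 exceeded Cxcr5 by 1.05 ± 0.80 as deposited, but not in tumour 1 with GC and length trends removed. The pair Cx3cl1 and Cx3cr1 was balanced at -0.06 ± 0.38, and turned positive (0.15) without tumour 1. Ccr6 and Ccl20 were both near the detection limit at -0.30 ± 1.31 (0.45 without tumour 1). For Cxcl12 minus Cxcr4 the mean difference was -0.47 ± 0.65. Both stood at 10.4 FPKM in tumour 1, with the receptor barely ahead, and differed by -1.21 in tumour 3. Ccr10 (-0.73 ± 0.32) and Ccr7 (-0.995 ± 1.14) exceeded their ligands at low levels on both sides. For Ccr10 the ligand sum rests on Ccl27a alone, at about 1.2, 2.6 and 5.3 fragments, because Ccl28 was listed at 0. For Ccl27a 3 fragments would be 0.492 FPKM, above its values in tumours 1 and 2, so the size of that gap is uncertain there. For Ccr7 the ligand sum holds Ccl19 and Ccl21c only, because Ccl21a and Ccl21b gave no usable value, and with 0.01 added the difference became -2.18.

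**Figure D4:**
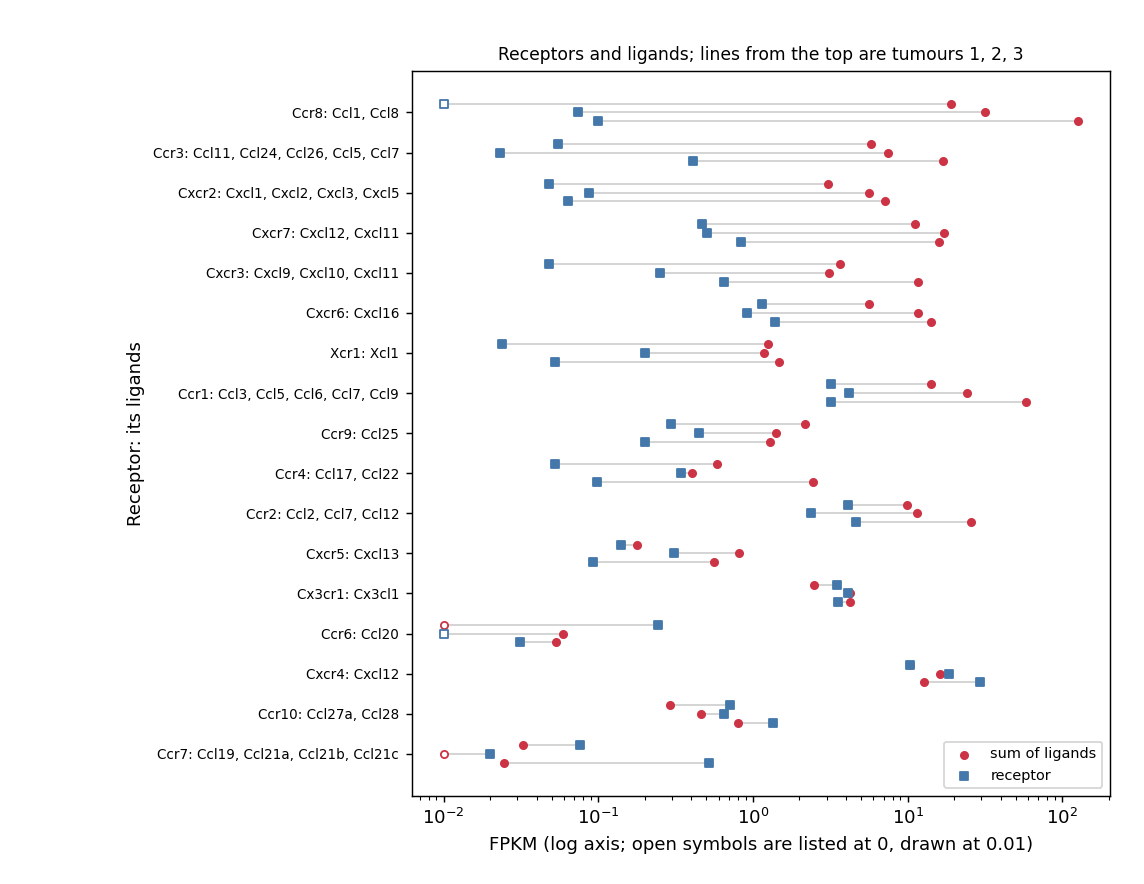
FPKM on a logarithmic axis of 17 receptors (squares) and of their summed ligands (circles), with 1 line per tumour in the order 1, 2, 3 from the top, open symbols for values listed at 0 (drawn at 0.01) and receptors ordered by the mean log2 difference. Ccr8 lies at the top (8.13) and Ccr7 at the bottom (-0.995), and the symbols change sides between tumours for Ccr6 and Cx3cr1.

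Many of the members lie in a few gene clusters, and their values were summed by cluster. On mm9 the neighbouring genes Ccl2, Ccl7, Ccl11, Ccl12, Ccl8 and Ccl1 form a group that spans chr11:81849079-81993314, or 144.2 kb. Its sum was 31.0, 45.7 and 157 FPKM, of which Ccl8 gave 19.0, 31.5 and 125. All 5 of its genes averaging 1 FPKM or more were highest in tumour 3. The second chromosome 11 group, Ccl5, Ccl9, Ccl6, Ccl3 and Ccl4 at chr11:83339281-83478185, summed to 12.9, 21.3 and 56.2 FPKM, with Ccl5, Ccl9, Ccl6 and Ccl4 as the genes averaging 1 FPKM or more, each highest in tumour 3. The CXCR3 ligands Cxcl9, Cxcl10 and Cxcl11 lie within 41.9 kb at chr5:92750357-92792303 and summed to 3.68, 3.09 and 11.7 FPKM, each highest in tumour 3. Ccl4 and Cxcl11 reached that average only through tumour 3, which fixed their direction, and the share of all genes highest in tumour 3 was 47.4%. The neutrophil-attracting group Cxcl5, Cxcl3, Cxcl15, Cxcl1 and Cxcl2 at chr5:91188325-91334964 summed to 3.16, 5.92 and 7.48 FPKM. The receptor genes Ccr9, Cxcr6, Xcr1, Ccr1, Ccr3 and Ccr2 at chr9:123676329-124023879 summed to 8.86, 8.11 and 9.93 FPKM. Of the 3 averaging 1 FPKM or more, 2 were highest in tumour 3.

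Other genes of the chemokine system were taken from written lists. Their counts are to be read beside 54.2% of all genes tested above 1 FPKM and 32.5% under it. Of 24 genes of receptor signalling 15 lay above 1 FPKM and 2 below (1 without tumour 1 or tumour 2), with a median of 2.28 on the log2 scale over 1 FPKM, beside 1.09 for all genes. The highest were Gnai2 (mean 82.9), which encodes an inhibitory G protein subunit, and the small GTPases Cdc42 (60.4) and Rac1 (32.5). The lowest were Plcb2 (0.534) and Gnai1 (0.148, 0.307 and 0.297 FPKM). Of 12 genes that process or present chemokines 9 lay above and 2 below. The heparan sulphate proteoglycans Sdc4 (mean 207) and Sdc1 (26.7) and the heparan sulphate enzyme Ndst1 (26.5) led, and Dpp4 (0.212), the protease that trims many chemokines, and Mmp8 (0.0345) were lowest. Of 4 atypical or scavenging receptors Ccrl2 lay above 1 FPKM, at 4.01, 5.65 and 5.95 FPKM, and Ccbp2 and Darc below, the second at 0, 0 and 0.166 FPKM, while Ccrl1 (mean 1.33) could not be separated. Of the platelet chemokines Pf4 gave 0.529, 3.12 and 5.19 FPKM and could not be separated from 1 FPKM, although it was called above it without tumour 1, and Ppbp lay below it with a mean of 0.149, a call lost without tumour 2. Of 12 cytokines that are known to induce chemokines 1 lay above and 8 below. The 1 was Il1b, at 3.05, 9.42 and 13.5 FPKM, lowest in tumour 1 and highest in tumour 3, a call lost without tumour 2. Ltb (mean 0.977) and Tnf (0.312, 0.773 and 0.784 FPKM) followed, and Il17a (mean 0.0109) and Il13 (listed at 0) were lowest.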

How the data were processed

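Gene levels were measured by total RNA sequencing of rRNA-depleted RNA in 3 tumours, with directional libraries made from 50 ng, per the labels' protocols. The authors deposited, for every gene, an FPKM with interval bounds and a status, per the file headers. TopHat, Cufflinks and mm9 are named without roles per the submitters' processing notes, and the sources used here give no versions, annotation release or strand setting. Overlapping genes are therefore uncertain.

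Rows of a repeated symbol were added up, and symbols whose status was not OK in every tumour (182) were left out of the tests. The level test used limma 3.58.1 (R 4.3.3), fitted to log2((FPKM + 0.1)/(1 + 0.1)), intercept only, with a mean-variance trend and robust moderation, over 18028 genes listed above 0 in at least 1 tumour. This scale understates the distance of low genes from 1 FPKM. Differences between tumours were tested by Cochran's Q with 2 degrees of freedom, the standard error being the interval's width over 4, for genes averaging 1 FPKM or more. P-values were adjusted by Benjamini-Hochberg over all genes tested. Implied fragments are FPKM over its standard error, squared, with the error taken from the upper bound. Of genes under 60 fragments, 71.2%, 72.1% and 70.3% came within 0.02 of a whole number, so no count test was run. GC and length trends, from GENCODE vM21 by gene name (98.2% matched), were fitted by lowess (span 0.3) and subtracted. Coordinates are those of the files, counted from 1, and promoter windows are from RefSeq. Both tests were also run on simulated data. For Cochran's Q the simulated spread was counting error only, so that run does not cover GC and length trends or spread between animals.

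Named are members averaging 1 FPKM or more, the 5 next ligands and the 5 next receptors, both sides of pairs with such a member, and the highest and lowest genes of each list. The others were chosen after their values were seen. The members, lists, pairs and tests were chosen with earlier results of these data known. Of the set, 1 member is not reported here. It stays in the counts, medians and sums over all members, and is left out of the pairs, gene clusters and figures.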

Additional observations from a re-analysis of the deposited data

How the results depend on the processing

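Alternatives covered the pseudocount, scaling, removal of GC and length trends, filters, thresholds and each tumour left out. The number of members above 1 FPKM stayed within 1.5 times its main value of 19, from 13 to 25. The number below, 23, moved to 9 with each tumour rescaled to a total of 1000000 FPKM, to 15 with a mean of at least 0.1 FPKM required or a threshold of 0.5 FPKM, and to 13 with genes listed at 0 in the fit. It ranged from 13 to 23 with 1 tumour left out. The pathway genes below 1 FPKM became 7 after the rescaling, and the marker genes below it 11 after the rescaling, 10 with the mean filter and 12 with the lower threshold. The members that differed between tumours, 15, ranged from 2 to 14 with 1 tumour left out, 2 being the value without tumour 3, and from 10 to 21 under the other settings. Standard errors from the upper interval bound, an alternative added after seeing the data, gave the same 15. The mean log2 differences of Ccr6 and Cx3cr1 from their ligands reversed to 0.45 and 0.15 without tumour 1, with ranges of -0.78 to 0.45 and -0.22 to 0.15 over the tumours left out. The cause was not tested. Values for single genes kept their side of the threshold in 615 settings, gained a call in 38 and lost it in 85. No paired analysis was possible because the 3 tumours form 1 group. Depth limits the members listed at a few fragments, and with 3 tumours of 1 line no wider claim can be made.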
